A study of Mus musculus with 6 samples.

Results

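Ribosomal protein genes and their processed pseudogenes were examined in RNA of 6 primary mouse osteosarcomas. Members were chosen by gene symbol, not by any measured value. They are 314 of the 39179 rows of the count table: 87 genes with a ribosomal protein symbol and 227 pseudogenes named after one of them. The genes comprised 46 of the large subunit, 30 of the small subunit and 11 paralogs or copies with a symbol of their own (such as *Rpl3l* and *Rps4l*). Of the 87 genes, 82 are annotated as protein coding, and *Rpl6l*, *Rps12l1*, *Rps3a2*, *Rps3a3* and *Rps4l* are annotated as processed pseudogenes despite their symbols. Of the 227 pseudogenes, 215 are annotated as processed pseudogenes, 6 as transcribed processed pseudogenes and 6 as protein coding. A parent gene among the 87 was found for 226 of the 227 pseudogenes. *Rps12*, with 22 pseudogenes, and *Rpl31*, with 21, had the largest families. A few ribosomal protein symbols of another form, *Rpsa* among them, are not members.

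The tumors arose in mice of mixed C57BL/6 x 129/Sv x FVB strain, all with the genotype Nf2Δ2/+, which carries a mutated allele of the tumor suppressor gene *Nf2*. 3 tumors were from *Cd44*+/+ mice (No244, No316 and No368) and 3 from *Cd44*−/− mice (No203, No279 and No364), which lack the cell surface receptor CD44. Ages are not in the labels, and no treatment is named. The labels describe the tissue as osteosarcoma, but their extraction protocol speaks of cell lines, whereas the methods of the study name tumor tissue.

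Ribosomal proteins join with ribosomal RNA to form the large and the small ribosomal subunit, and nearly every one of them is encoded by 1 active gene. Their mRNAs are short and abundant, and many begin with a pyrimidine tract (the 5′ TOP motif) through which the mTOR pathway controls their translation. Abundant short mRNAs are often copied back into the genome, so ribosomal protein genes have many processed pseudogenes, which lack introns and can differ from the parent mRNA by only a few bases. A short read from such a transcript may match both the gene and its copies.

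How far the copies resemble their parents is shown by the following stretches of 51 bases, the number of sequencing cycles of the study. All are from GENCODE M21 transcripts (GRCm38) and are written on the strand of the transcript. Each is the single-exon stretch of the parent's coding sequence that differs most from the copy, and capitals mark the bases that differ. *Rpl5* encodes a large subunit protein that binds 5S RNA, and its copy *Rpl5-ps1* had the smallest p-value of all members. *Rpl10-ps6* and *Rps16-ps2* are among the 10 pseudogenes with the highest mean level.
Rpl5: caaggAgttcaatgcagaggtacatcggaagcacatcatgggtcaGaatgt
Rpl5-ps1: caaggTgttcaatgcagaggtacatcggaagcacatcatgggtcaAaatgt
Rpl10: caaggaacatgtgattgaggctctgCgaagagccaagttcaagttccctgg
Rpl10-ps6: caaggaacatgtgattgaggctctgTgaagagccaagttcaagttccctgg
Rps16: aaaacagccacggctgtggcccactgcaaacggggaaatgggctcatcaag
Rps16-ps2: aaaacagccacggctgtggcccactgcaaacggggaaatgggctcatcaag
The *Rpl5* stretch is at chr5:107904750-107904800 (plus strand) and that of *Rpl5-ps1* at chr1:14865632-14865682 (plus strand), and the copies differed at 10 of 891 aligned coding bases. The *Rpl10* stretch lies at chrX:74272774-74272824 (plus strand) and that of *Rpl10-ps6* at chr19:37295315-37295365 (minus strand), with 1 difference in 642 coding bases. *Rps16* (chr7:28350992-28351042, plus strand) and *Rps16-ps2* (chr5:129128419-129128469, minus strand) were identical over all 438 coding bases.

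Over all members, the share of 51-base words that occur in a transcript of another gene had a median of 34.9% for the 87 genes and 44.9% for the 227 pseudogenes. Every word of 31 pseudogenes occurred elsewhere, and 25 pseudogenes shared none. The *Rps12* copies named *Rps12-ps11* to *Rps12-ps15*, whose words all occur in other genes, had no counts in any tumor, but 26 of the 31 had counts. *Rps12l1* was the only one of the 87 genes without a word of its own. The settings of the read counting for strand and for reads with more than 1 matching gene are not given in the sources used here. Of the members, 50 genes and 76 pseudogenes also overlap another annotated gene on either strand, and 34 genes and 26 pseudogenes do so on the same strand. These overlaps are between whole gene spans, introns included, and may make the counts uncertain. The M21 annotation used here for names and positions is a later release than the Ensembl release named for the counting.

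The total count per tumor lay between 18076388 and 26954142. In No244, 55.2% of the counts fell on mitochondrial genes, against 5.94% to 12.5% elsewhere, so shares are given of the counts on all other genes. Counts of the *Cd44*+/+ libraries No316 and No368 were close to proportional, so the pair entered means and SDs as 1 sample (n = 2 for *Cd44*+/+ and n = 3 for *Cd44*−/−), while the fits used all 6 libraries. Summed hepatocyte markers (13 of 13 counted in every tumor) reached 162993 CPM (counts scaled to the effective library size of TMM, the unit of all levels given here) in No364 and at most 224 in any other tumor. The 10 skeletal muscle markers, all counted in every tumor, summed to 20786 CPM in No244 and at most 793 elsewhere. The 10 osteoblast markers, also all present, ranged from 3696 CPM in No364 to 84991 in No203. A hepatocyte score entered an alternative fit, given in the closing section. The part of these cell types in the results below was otherwise not tested, and in bulk RNA fewer cells of a type and less RNA per cell cannot be told apart. *Cd44* itself lay between 137.3 and 243.6 CPM in *Cd44*+/+ and between 15.7 and 61.8 CPM in *Cd44*−/− tumors.

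Ribosomal protein genes together took 6.46% of the nuclear gene counts in No244, 3.52% in No316 and 3.47% in No368. Among *Cd44*−/− tumors the share was 7.01% (No203), 4.45% (No279) and 2.93% (No364). The highest and the lowest of these shares thus both came from *Cd44*−/− tumors, and the genotypes overlapped. The lowest place depended on the denominator. With the top 100 genes outside the members also left out of it in each tumor, No364 (4.53%) lay above No316 (4.45%) and No368 (4.39%). For *Cd44*+/+ tumors the share averaged 4.98% ± 2.10 (SD, n = 2). For *Cd44*−/− tumors it averaged 4.80% ± 2.06 (SD, n = 3). The 95% Wilson interval of a tumor's share extended at most 0.0157 percentage points to either side, which covers counting error only.

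The 227 pseudogenes took 1.07%, 0.790% and 0.733% of the nuclear gene counts in No244, No316 and No368. In No203, No279 and No364 they took 1.25%, 0.876% and 0.563%. The order of the tumors was the same as for the genes, with No203 highest and No364 lowest. Relative to the counts of the genes, the pseudogenes amounted to 16.5%, 22.5% and 21.1% in the *Cd44*+/+ tumors and to 17.8%, 19.7% and 19.2% in the *Cd44*−/− tumors. The *Cd44*−/− values lay inside the range of the *Cd44*+/+ values.

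**Figure D1:**
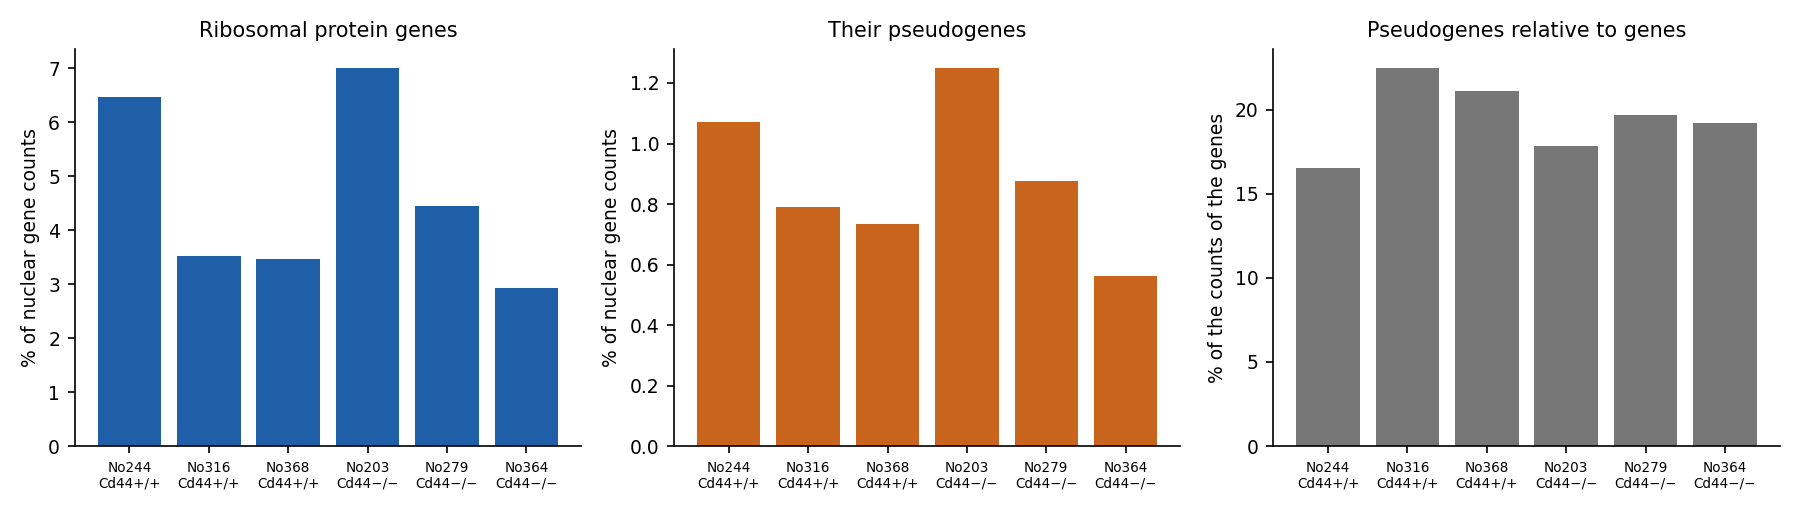
Bars show, for each tumor, the counts on ribosomal protein genes and on their pseudogenes as a percent of all counts outside the mitochondrial genes, and the pseudogenes as a percent of the genes. No203 and No244 were highest in the first and second panel, at 7.01% and 6.46% for the genes.

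RNA levels of the genes of both subunits differed between tumors mainly together. The 76 subunit genes were compared, tumor by tumor, with the median of the other 5 tumors. Their median ratio was 1.83 in No203 and 1.41 in No244, 1.08 in No364 and 0.981 in No279, and 0.694 and 0.679 in No316 and No368. In No203, 23 of the 76 genes lay more than 2-fold above the median of the others and none more than 2-fold below. In No244 the number above was 19, while No316 and No368 had none above and 9 and 10 more than 2-fold below. No203 was the highest tumor for 52 of the 86 genes tested and No244 for 25, whereas No368 was the lowest for 51.

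No244 also had the widest spread among the subunit genes themselves, with an interquartile range of 0.749 on the log2 scale against 0.317 to 0.437 in the other tumors. *Rpl41*, which encodes the shortest ribosomal protein, reached 2152 CPM in No244, 401.4 in No316 and 614.1 in No368. It lay at 854.7 CPM in No203, 646.5 in No279 and 449.2 in No364. No244 exceeded every other tumor, and the remaining *Cd44*+/+ libraries lay among or below the *Cd44*−/− tumors. *Rpl35* (1820 CPM in No244, 501.6 to 838.0 elsewhere) and *Rpl13a* (2354 CPM in No244, 482.4 to 1371 elsewhere) also had No244 first and No203 second. *Rpl15*, *Rpl23a* and *Rpl7a* were the genes with the lowest ratio in No244 (0.589, 0.619 and 0.636 of the median of the others).

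**Figure D2:**
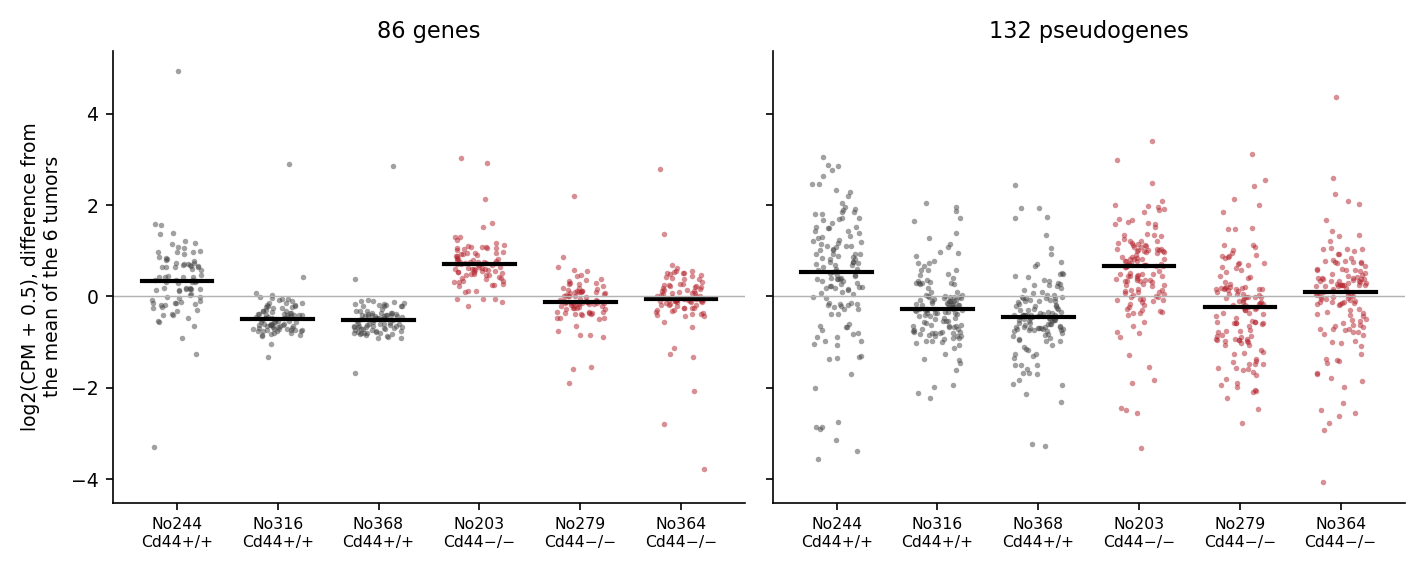
Each point is 1 of the 86 genes (left) or 132 pseudogenes (right) that passed the low-count filter, placed by its log2(CPM + 0.5) in a tumor minus its mean over the 6 tumors, and black bars are medians. The genes lay close together within a tumor and moved with it, with medians of 0.70 in No203 and -0.52 in No368, while the pseudogenes scattered more widely.

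edgeR's quasi-likelihood test with Benjamini-Hochberg adjustment compared the genotypes over the 16839 genes that passed its filter, 86 ribosomal protein genes and 132 pseudogenes among them. *Rpl10l*, a testis paralog of *Rpl10*, had no count in any tumor and was left out, as were 95 pseudogenes. The test called none of the 86 genes and none of the 132 pseudogenes at an adjusted p under 0.05 (background 0% of all genes). At an unadjusted p under 0.05, 6 genes (6.98%) and 9 pseudogenes (6.82%) were higher in *Cd44*−/− tumors, beside 6.44% of all genes tested. No gene and 3 pseudogenes (2.27%) were lower, beside 4.31% of all genes. These shares were near the background. With No316 and No368 summed, 1 of 86 genes and 2 of 141 pseudogenes were higher at an unadjusted edgeR p under 0.05. In that setting 1 gene and 2 pseudogenes were lower. The DESeq2 Wald test, the tool of the study, gave an adjusted p to 84 genes and 146 pseudogenes. It called *Rps4l* and *Rpl28-ps3* higher, 1 member of each class, beside 1.21% of all genes, and *Rpl5-ps1* lower, beside 1.12% of all genes.

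The median log2 fold change (*Cd44*−/− against *Cd44*+/+) was 0.41 for the genes and 0.30 for the pseudogenes, beside 0.11 for all genes tested. For the large subunit it was 0.33, with 34 of 46 genes above 0, and for the small subunit 0.53, with 27 of 30 above 0. Among all genes 55.1% were above 0. Without the *Cd44*−/− tumor No203, the median of the genes was 0.07 and that of the pseudogenes -0.03 (all genes 0.06), and without the *Cd44*+/+ tumor No244 they were 0.80 and 0.76 (all genes 0.19). With No316 and No368 summed the medians were 0.22 and 0.13, beside 0.12 for all genes. The medians of both classes thus depended on single tumors.

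The levels of 21 of the 86 genes (24.4%) were higher in every *Cd44*−/− tumor than in every *Cd44*+/+ tumor, beside 9.49% of all genes tested. None was lower in every *Cd44*−/− tumor, beside 9.57%. Of the 21, 11 belong to the large subunit, 7 to the small subunit and 3 are paralogs. Of the pseudogenes, 16 (12.1%) were higher and 5 (3.79%) lower. With No316 and No368 averaged to 1 sample, the genes still numbered 21 and 0 (all genes 10.5% and 10.4%), and the pseudogenes 18 and 11. Without No244, 63 of the genes (73.3%) were higher, beside 20.2% of all genes. Without No203, 21 (24.4%) were higher, beside 19.2% of all genes, and 2 (2.33%) were lower, beside 18.7%. The genes are not independent of each other, since they moved together from tumor to tumor.

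**Figure D3:**
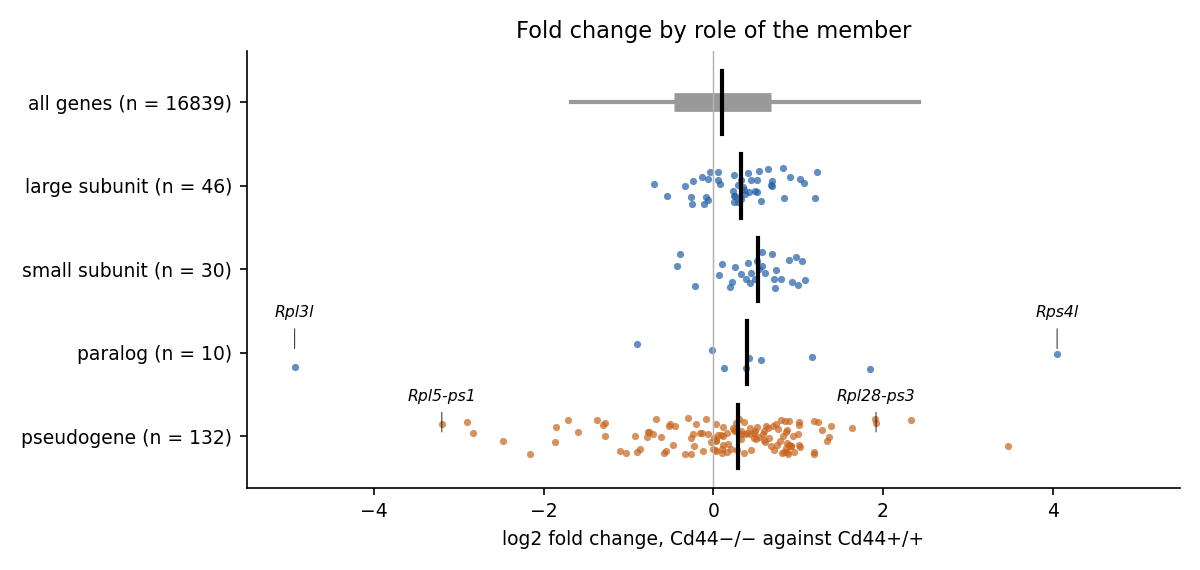
Each point is a ribosomal protein gene or pseudogene placed by its log2 fold change in edgeR, in rows by role, and black bars are medians. For all genes tested the thick bar runs between the quartiles and the thin bar between the outer quantiles (0.05 and 0.95), and the members' medians lay between 0.30 and 0.53.

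Among genes of the large subunit, the smallest p-values in the direction of higher levels belonged to *Rpl18*, *Rpl15*, *Rpl23a*, *Rpl27* and *Rpl7a*. *Rpl18* (chr7:45715457-45720836) lay at 197.9, 136.3 and 138.3 CPM in the *Cd44*+/+ tumors and at 466.3, 292.3 and 347.1 CPM in the *Cd44*−/− tumors, given here and below in the order No244, No316, No368 and No203, No279, No364. Each *Cd44*−/− tumor was above each *Cd44*+/+ tumor. Its log2 fold change was 1.23 (SE 0.43, edgeR unadjusted p = 0.0260, adjusted p = 0.452). *Rpl15* lay at 136.0, 107.1 and 131.3 CPM against 291.0, 230.8 and 235.9 CPM, again without overlap (log2 fold change 1.02, SE 0.37). For *Rpl23a*, whose protein lines the exit of the peptide tunnel, the values were 195.7, 190.8 and 180.9 CPM against 550.5, 316.2 and 437.5 CPM (log2 fold change 1.20, SE 0.43). *Rpl23a* shared 82.5% of its 51-base words with other genes. *Rpl27* and *Rpl7a* had log2 fold changes of 1.07 (SE 0.47) and 0.69 (SE 0.35) and did not overlap between genotypes either. With No316 and No368 summed, the unadjusted p of these 5 genes lay between 0.121 and 0.202.

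In the opposite direction the smallest p-values of the large subunit belonged to *Rpl41*, *Rpl35*, *Rpl24*, *Rpl5* and *Rpl36*, with log2 fold changes of -0.70 (SE 0.79), -0.54 (SE 0.71), -0.33 (SE 0.67), -0.26 (SE 0.61) and -0.25 (SE 0.60). Their unadjusted p lay between 0.405 and 0.693, and No244 was the highest tumor for each. All 5 changed sign when No244 was left out, with values from 0.30 to 0.43. *Rpl5* lay at 1715, 693.6 and 700.0 CPM in the *Cd44*+/+ tumors and at 866.8, 812.0 and 914.6 CPM in the *Cd44*−/− tumors.

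Small subunit genes showed no unadjusted p under 0.05 in either direction. *Rps3*, whose protein sits at the entry of the mRNA channel, came closest with 404.7, 269.7 and 260.7 CPM in the *Cd44*+/+ tumors and 686.7, 697.2 and 596.6 CPM in the *Cd44*−/− tumors. The genotypes did not overlap, and the log2 fold change was 1.08 (SE 0.47, edgeR unadjusted p = 0.0551). *Rps16*, *Rps13* and *Rps6* had log2 fold changes of 1.05 (SE 0.47), 0.93 (SE 0.47) and 0.99 (SE 0.52). Each of these 3 was higher in every *Cd44*−/− tumor. *Rps6* encodes the ribosomal protein phosphorylated by the S6 kinases, and its levels were 489.7, 286.8 and 278.3 CPM against 914.3, 533.5 and 653.5 CPM, so that No279 and No244 lay close together. Only *Rps4x*, *Rps15* and *Rps21* of the small subunit were below 0, at -0.43 (SE 0.68), -0.39 (SE 0.68) and -0.21 (SE 0.49), and each was above 0 without No244.

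Per length of the principal transcript, the mean level of the subunit genes had a median of 611 CPM per kb. The highest was *Rpl41* with 1952 CPM per kb and the lowest *Rpl29* with 18.4 CPM per kb. *Rpl29*, which encodes a protein of the large subunit known to bind heparin, lay at 10.9, 11.5 and 11.04 CPM in the *Cd44*+/+ tumors and at 14.6, 15.55 and 0.785 CPM in No203, No279 and No364. No364 stood far below the others, which were close together. The 3 *Rpl29* pseudogenes held 92.5% of the counts of the family in No364, 8.01% in No279 and 44.4% to 68.7% in the other tumors.

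The start sites of the genes, paralogs included, were searched for the 5′ TOP motif, here a C followed by further C or T bases, on the strand of the gene only and beginning within 5 bases of the RefSeq start. RefSeq promoters (GRCm38.p6) were found for 62 of the 87 genes, with 74 start sites. A run of at least 8 bases was present at 28.4% of these and at 4.37% of all 32851 promoters, and one of at least 5 bases at 41.9% and 18.3%. The 30 bases around the start are printed for 5 of the genes named above, with the run in capitals.
Rpl15: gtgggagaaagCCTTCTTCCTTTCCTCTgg
Rpl35: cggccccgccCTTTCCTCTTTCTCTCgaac
Rps6: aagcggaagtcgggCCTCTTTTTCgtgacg
Rpl18: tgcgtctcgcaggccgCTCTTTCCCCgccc
Rps4x: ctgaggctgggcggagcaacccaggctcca
The windows lie at chr14:18270972-18271001 (minus strand), chr2:39005117-39005146 (minus), chr4:86857353-86857382 (minus), chr7:45718056-45718085 (plus) and chrX:102189377-102189406 (minus). *Rpl15* and *Rpl35*, with runs of 17 and 16 bases, had log2 fold changes of opposite sign (1.02 and -0.54). No run met these terms in the window of *Rps4x*, which says only that these letters are not there. The same held for *Rps3*, *Rps16*, *Rpl5* and *Rpl41*, whose windows are not printed. Of these, *Rps3* and *Rps16* had positive and *Rpl5* and *Rpl41* negative log2 fold changes.

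Paralogs varied more between tumors than the subunit genes. *Rps4l*, an intronless copy of the X-linked gene *Rps4x* on chromosome 6 (148354656 to 148355598, plus strand), had 2.35, 2.22 and 1.64 CPM in the *Cd44*+/+ and 54.9, 1.85 and 46.6 CPM in the *Cd44*−/− tumors. The level was high in 2 of 3 *Cd44*−/− tumors, while No279 was inside the *Cd44*+/+ range. Mean levels came to 2.14 ± 0.298 (SD, n = 2) and 34.4 ± 28.5 (SD, n = 3) CPM, with a log2 fold change of 4.05 (SE 1.14, edgeR adjusted p = 0.452). DESeq2 called it (adjusted p = 0.0140), a call lost once the pair No316 and No368 was summed (DESeq2 adjusted p = 0.120). *Rps4l* differed from *Rps4x* at 157 of 783 aligned bases, and 14.4% of its 51-base words occur in other genes. The most different stretch is shown, with the differing bases in capitals.
Rps4x: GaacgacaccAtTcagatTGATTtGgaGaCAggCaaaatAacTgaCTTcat
Rps4l: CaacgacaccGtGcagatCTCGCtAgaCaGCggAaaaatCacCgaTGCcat
They lie at chrX:102186410-102186460 (minus strand) and chr6:148355177-148355227 (plus strand). *Rps4l* lies opposite a gene on the other strand, *Tmtc1*.

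*Rpl3l*, the paralog that replaces *Rpl3* in heart and skeletal muscle, lay at 62.9 CPM in No244 and between 0 and 1.43 CPM in the other 5 tumors. No244 was also the tumor with 20786 CPM of skeletal muscle markers, and No203, second for both, had 793 CPM. The log2 fold change of -4.93 (SE 2.25, edgeR adjusted p = 0.471) became 0.21 without No244. *Rpl39l*, a paralog of *Rpl39* known from testis, had 0.420, 66.5 and 64.7 CPM in the *Cd44*+/+ and 68.2, 2.51 and 0.157 CPM in the *Cd44*−/− tumors. It was thus high in tumors of both genotypes and at or near the floor of 3 counts (0.0990 to 0.252 CPM) in No364. *Rpl3l* and *Rpl39l* shared no 51-base word with another gene.

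*Rps27l*, a p53 target related to *Rps27*, lay at 81.7, 65.4 and 62.6 CPM against 107.9, 104.9 and 258.6 CPM. Every *Cd44*−/− tumor was higher (log2 fold change 1.17, SE 0.47, edgeR unadjusted p = 0.0440, adjusted p = 0.459), with No364 well above the rest. *Rpl6l* reached 408.4 CPM in No279, 76.9 in No203 and 98.3 in No364 against 46.6, 56.6 and 58.6 CPM (log2 fold change 1.85, SE 0.70), and 76.1% of its 51-base words occur elsewhere. *Rpl7l1*, a relative of *Rpl7*, had a log2 fold change of 0.56 (SE 0.32) and *Rpl22l1*, the paralog of *Rpl22*, one of 0.42 (SE 0.53). *Rps3a2* was at -0.01 (SE 0.64). *Rps3a3* ranged from 144.5 CPM in No364 to 975.1 CPM in No203 and *Rps12l1* from 4.92 CPM in No279 to 87.8 CPM in No203, and both overlapped between genotypes.

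Pseudogenes differed more between tumors than the genes from which they derive. Taking No316 and No368 as 1 sample, the median fold between the highest and the lowest tumor was 4.93 for the 132 tested pseudogenes, 2.84 for the 86 genes and 3.48 for all genes. A range over 10-fold was seen for 28 pseudogenes (21.2%), for 5 genes (5.81%) and for 17.5% of all genes. Of the 132 tested pseudogenes, 108 had a wider range than their parent. Their direction was that of the parent in 88 cases and opposite in 44. Most genes (68 of 86) and most pseudogenes (88 of 132) had log2 fold changes above 0, so many pairs would share a direction without any link. When the counts of each parent and its copies were added, the median range of the 52 families was 2.67-fold, close to the 2.79-fold of the parents alone.

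*Rpl5-ps1*, on chromosome 1 (14865072 to 14865965, plus strand), had the smallest p-value of all members. Its levels were 150.3, 345.3 and 342.2 CPM in the *Cd44*+/+ and 36.4, 27.8 and 26.95 CPM in the *Cd44*−/− tumors. All *Cd44*−/− tumors were close together and below all *Cd44*+/+ tumors. Mean levels came to 247 ± 137 (SD, n = 2) and 30.4 ± 5.22 (SD, n = 3) CPM, and the fitted log2 fold change to -3.20 (SE 0.49, edgeR unadjusted p = 0.000385, adjusted p = 0.452). DESeq2 called it (adjusted p = 3.01e-06) and also did so with No316 and No368 summed (adjusted p = 0.00646). The parent *Rpl5* had a log2 fold change of -0.26 (SE 0.61), and *Rpl5* with its copies added one of -0.49. Other genes contained 65.9% of the 51-base words of *Rpl5-ps1*, most often *Rpl5* itself, and the stretch printed above shows 2 of the bases in which they differ.

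*Rpl28-ps3*, on chromosome 4 (126069867 to 126070259, minus strand), was the other pseudogene that DESeq2 called. Its parent *Rpl28* encodes a protein of the large subunit. Its levels were 38.8, 36.9 and 19.5 CPM against 154.6, 129.3 and 76.1 CPM, with every *Cd44*−/− tumor above every *Cd44*+/+ tumor. The log2 fold change was 1.92 (SE 0.45, edgeR adjusted p = 0.452, DESeq2 adjusted p = 0.0289), and with No316 and No368 summed the DESeq2 adjusted p was 0.237. The libraries No316 and No368 themselves differed for it (36.9 and 19.5 CPM). Over 390 aligned coding bases, *Rpl28-ps3* differs from *Rpl28* at 3, of which 1 lies in the following stretch.
Rpl28: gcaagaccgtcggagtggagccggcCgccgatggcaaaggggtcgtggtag
Rpl28-ps3: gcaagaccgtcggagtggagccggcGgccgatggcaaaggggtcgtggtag
The positions are chr7:4793558-4793608 (plus strand) and chr4:126070094-126070144 (minus strand).

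Further pseudogenes with small p-values in the higher direction were *Rpl19-ps4* (log2 fold change 1.90, SE 0.70), *Rps15a-ps4* (2.33, SE 0.89) and *Rpl31-ps11* (3.48, SE 1.35). *Rpl31-ps11* reached 204.4 CPM in No203 and 116.5 CPM in No364 but only 2.34 CPM in No279, below every *Cd44*+/+ tumor. In the lower direction *Rpl31-ps25* had a log2 fold change of -2.90 (SE 1.07), *Rps27a-ps2* one of -1.30 (SE 0.53), *Rpl38-ps1* one of -1.37 (SE 0.60) and *Rpl30-ps9* one of -1.59 (SE 0.76). *Rpl31-ps25* shared no word with another gene, and its counts were low, from 2 to 47 per tumor. None of these 7 was called by either test.

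Among the pseudogenes with the highest levels, some were assigned counts near or above those of their parents. All 51-base words of *Rpl17-ps5* and *Rpl34-ps1* and 92.2% of those of *Rpl10-ps6* occur in other genes. Their counts therefore cannot be taken as transcription of the copies. *Rpl17-ps5* had 596% of the counts of *Rpl17* in No244 and 56.2% in No279, and pseudogenes made up 93.3% of the counts of the *Rpl17* family in No244. *Rpl34-ps1* exceeded *Rpl34* in 5 of 6 tumors, with 69.3% of its counts in No244 and 108% to 175% in the others. *Rpl10-ps6* lay at 23.4 CPM in No244 and at 223.5, 236.9, 277.4, 425.4 and 560.9 CPM in No316, No368, No203, No279 and No364, while *Rpl10* ranged only from 466.7 to 867.5 CPM. No244 stood apart for the copy alone. *Rps6-ps1*, *Rps10-ps1*, *Rps12-ps9* and *Rpl17-ps4* were also among the 10 highest pseudogenes.

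*Rps16-ps2*, identical to *Rps16* over the coding sequence, had 11.5, 210.9 and 203.2 CPM in the *Cd44*+/+ and 637.2, 26.8 and 29.8 CPM in the *Cd44*−/− tumors. High and low tumors occurred in both genotypes. *Rps16*, which encodes a protein of the small subunit, lay at 393.1, 269.7 and 249.96 CPM against 731.9, 544.5 and 615.4 CPM, and was not low where the copy was. Counts of the copy amounted to 2.93% of those of *Rps16* in No244 and 87.1% in No203.

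A family of equal sequences was found among the copies of *Rpl35a*, which encodes a protein of the large subunit. *Rpl35a-ps2*, *Rpl35a-ps3*, *Rpl35a-ps4* and *Rpl35a-ps6* contained the same 51-base words, at 4 sites in the genome, and differed from the parent in the stretch below at the base in capitals.
Rpl35a: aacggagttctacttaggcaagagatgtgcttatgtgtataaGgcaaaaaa
Rpl35a-ps2, -ps3, -ps4 and -ps6: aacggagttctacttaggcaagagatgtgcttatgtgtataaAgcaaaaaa
The parent stretch lies at chr16:33057492-33057542 (plus strand), and the copies at chr1:181242157-181242207, chr17:29137141-29137191, chr2:108875095-108875145 and chr5:123255650-123255700 (all minus strand). *Rpl35a-ps6* had 62, 440 and 402 counts in the *Cd44*+/+ and 919, 739 and 521 counts in the *Cd44*−/− tumors. *Rpl35a-ps3* had 289, 361 and 410 counts against 1, 209 and 11 counts. In CPM, *Rpl35a-ps6* was higher and *Rpl35a-ps3* lower in every *Cd44*−/− tumor, so the counts assigned to these copies differed in opposite directions. Since their 51-base words are the same, a read of such a word cannot be placed by its sequence. The values below are of assigned counts and do not measure *Rpl35a-ps6* and *Rpl35a-ps3* each alone. Their log2 fold changes were 1.23 (SE 0.51, edgeR unadjusted p = 0.0484, adjusted p = 0.460) and -2.83 (SE 1.44, edgeR unadjusted p = 0.0921, adjusted p = 0.496), and neither was called. *Rpl35a-ps2* had from 3 to 59 and *Rpl35a-ps4* from 3 to 65 counts, and both overlapped between genotypes. The copy with the most counts was *Rpl35a-ps3* in No244 and No368 and *Rpl35a-ps6* in the other tumors.

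**Figure D4:**
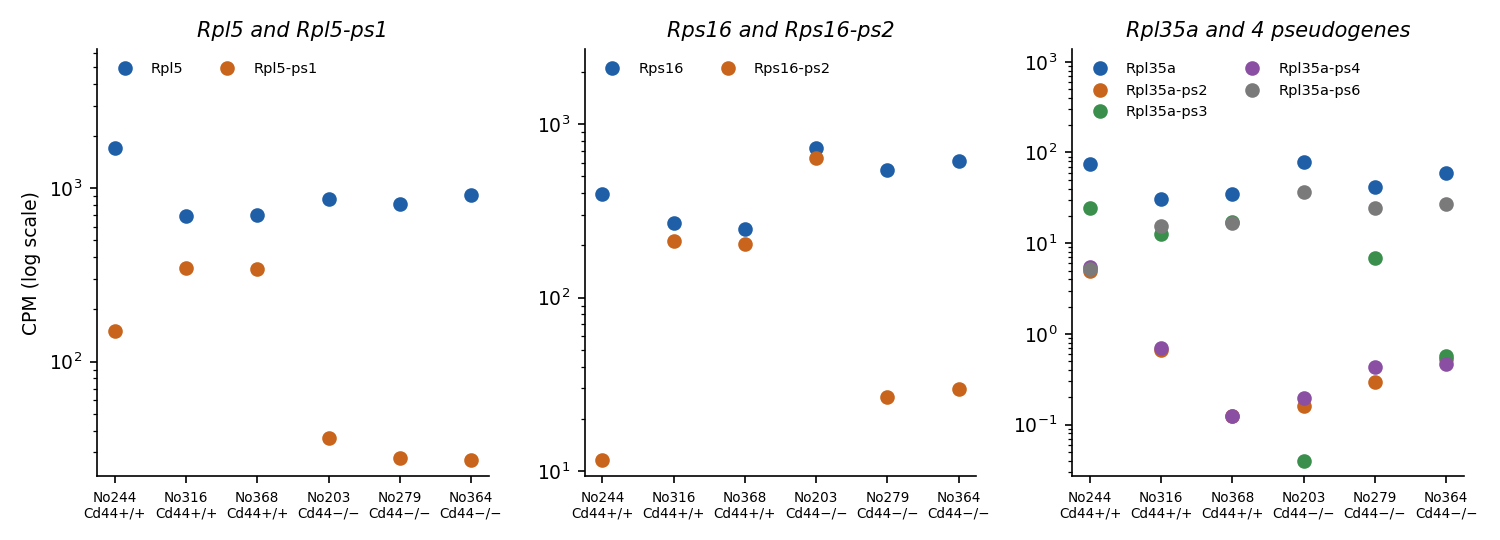
Points show CPM on a log scale in the 6 tumors for 3 parents and their copies. *Rpl5-ps1* was lower in each *Cd44*−/− tumor, from 26.95 to 36.4 CPM, whereas *Rps16-ps2* had high and low tumors in both genotypes, and *Rpl35a-ps6* was higher and *Rpl35a-ps3* lower in each *Cd44*−/− tumor.

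Other copies had equal counts at separate sites. *Rps19-ps1* and *Rps19-ps2*, both on chromosome 14 and with the same 51-base words, had 327 and 328 counts in No244, 161 and 161 in No368 and 467 and 467 in No203. They differed by at most 2 counts in every tumor. *Rps12l1* and *Rps12-ps3*, on chromosomes 7 and 19, had 698 and 698 counts in No244, 599 and 603 in No316 and 2214 and 2224 in No203. In the other tumors they were far apart, with 297 and 2976 counts in No368, 149 and 7877 in No279 and 150 and 3386 in No364. These pairs were singled out after their counts had been seen.

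The pair No316 and No368 shows the same contrast between the classes. Of the 86 genes, 44.2% lay outside the 95% binomial range around the median ratio of all genes (1.21), as did 65.2% of the 132 pseudogenes with at least 20 counts in the pair and 12.8% of all 16671 genes. The typical deviation was small for the genes, with a median of 0.051 on the log2 scale, and 0.39 for the pseudogenes, against 0.083 for all genes. In the other 14 pairs of tumors, from 84.9% to 100% of the ribosomal protein genes and from 77.8% to 91.2% of the pseudogenes lay outside the range. No gene deviated 2-fold between No316 and No368, and only *Rps12l1*, *Rpl41* and *Rpl21* deviated 1.5-fold (named after their values were seen). Of the pseudogenes, 38 deviated 2-fold and 9 deviated 5-fold.

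The 8 members that differed most were all pseudogenes. *Rpl12-ps2* had 121 counts in No316 and 3 in No368, *Rpl36a-ps3* had 1528 and 79, and *Rps15a-ps4* had 1158 and 71. *Rpl30-ps1* had 1345 and 109 counts, *Rpl34-ps2* 1977 and 188, *Rpl15-ps3* 107 and 11, and *Rpl31-ps9* 6517 and 701. *Rps12-ps3* alone of the 8 was higher in No368, with 603 and 2976 counts. For their 8 parents the ratio of No316 to No368 lay between 0.811 (*Rpl15*) and 1.06 times the median ratio of all genes. The most different stretch of *Rpl34-ps2* and its parent holds 3 differing bases, in capitals.
Rpl34: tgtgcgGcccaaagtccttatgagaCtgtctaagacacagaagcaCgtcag
Rpl34-ps2: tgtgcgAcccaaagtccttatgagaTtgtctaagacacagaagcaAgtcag
They lie at chr3:130728793-130728843 (minus strand) and chr13:116153954-116154004 (plus strand). Processed pseudogenes of every kind with at least 20 counts in the pair numbered 1333, of which 44.9% lay outside the range, beside 9.58% of 13555 protein-coding genes.

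**Figure D5:**
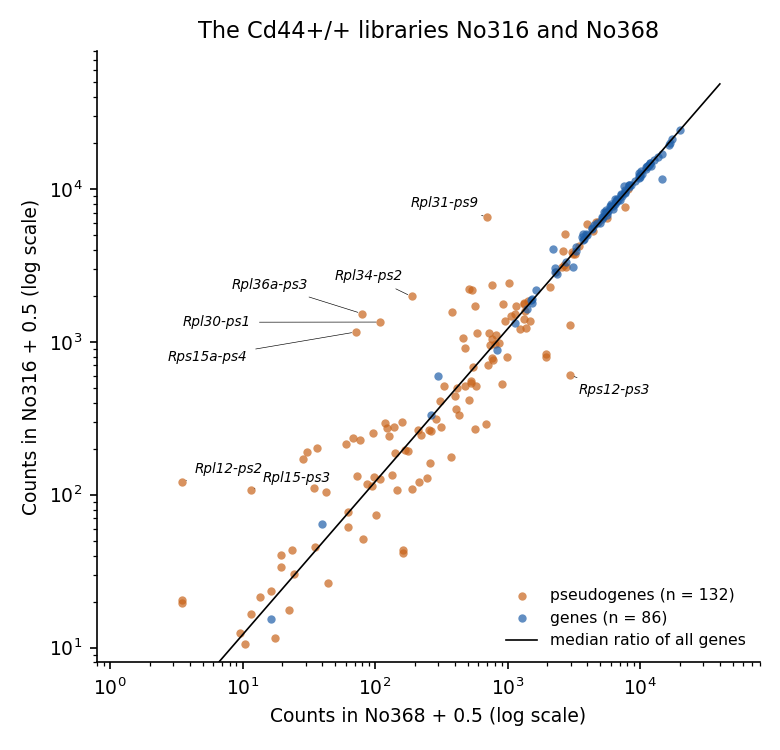
Each point is a ribosomal protein gene or pseudogene with at least 20 counts in No316 and No368 together, placed by its counts on log scales, and the line is the median ratio of all genes (1.21). Genes followed the line, while pseudogenes such as *Rpl31-ps9* (6517 and 701 counts) lay far from it.

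Other lists of genes were also compared, mitochondrial ribosomal protein genes among them. Of 76 mitochondrial ribosomal protein genes, none was called by edgeR, 7 (9.21%) were higher and 0 lower at an unadjusted p under 0.05, beside 6.44% and 4.31% of all genes. Their median log2 fold change was 0.43, beside 0.11 for all genes, and lay between 0.26 and 0.64 with each tumor left out. DESeq2 called *Mrps22*. In the list of 26 genes of snoRNPs and rRNA processing, edgeR called none, *Fbl* and *Npm1* (7.69%, all genes 6.44%) were higher at an unadjusted p under 0.05, and the median was 0.46 (0.36 to 0.56 with each tumor left out). *Npm1*, which encodes the nucleolar chaperone nucleophosmin, lay at 178.0, 220.5 and 208.7 CPM in the *Cd44*+/+ tumors and at 660.0, 403.6 and 481.4 CPM in the *Cd44*−/− tumors. Every *Cd44*−/− tumor was higher (log2 fold change 1.35, SE 0.44, edgeR adjusted p = 0.452), and DESeq2 called it (adjusted p = 0.0479).

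Other mRNAs with a 5′ TOP motif (23 genes tested) had a median log2 fold change of 0.61, with 21 (91.3%) above 0, beside 55.1% of all genes and their median of 0.11, and none at an unadjusted p under 0.05. Without No203 this median was 0.44 and without No244 it was 0.82. For 5 snoRNA host transcripts the median was 0.30 (-0.27 without No203 and 1.06 without No244), with *Snhg6* at an unadjusted p of 0.0296. The median of 5 chaperones of single ribosomal proteins was 0.50, that of 11 genes of TOR and MYC control 0.46 (-0.02 without No364) and that of RNA polymerase I and its factors (11 genes) -0.05, with none in these lists at an unadjusted p under 0.05. Neither edgeR nor DESeq2 called a gene of these 5 lists. The host transcript *Gas5*, whose introns carry snoRNAs, was highest in No203 with 814.7 CPM and lay between 129.5 and 265.02 CPM in the others, so No203 was highest for it as for most ribosomal protein genes.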

How the data were processed

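The authors prepared stranded mRNA libraries, sequenced them for 51 cycles from one end, aligned the reads to GRCm38 with HISAT2 (2.0.2) and counted them per Ensembl gene with featureCounts (Subread 2.0.0). They deposited raw counts, without normalization, and no column was left unused. The counts were analysed as deposited, with symbols from GENCODE M21 for 37607 of 39179 identifiers.

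Members were selected by symbol. The members, gene lists and tests were chosen with earlier results of these data known, and named genes followed a rule: per class the 5 smallest p-values in each direction, all called members, the 5 highest and 5 lowest genes, all paralogs, the 10 highest pseudogenes with their parents, and the 8 members that differed most between No316 and No368.

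Genotypes (3 and 3 libraries, from 18076388 to 26954142 counts) were compared in edgeR 4.0.16 (R 4.3.3) with TMM factors, filterByExpr, quasi-likelihood F tests and Benjamini-Hochberg adjustment over all 16839 genes. SEs were derived from the fold change and the root of its F statistic. The p-values measure the spread between these libraries, and of the tumors only mouse numbers are known. No316 and No368 entered as 2 libraries although their counts were close to proportional. The p-values and SEs may therefore understate the spread between *Cd44*+/+ tumors. Alternatives were DESeq2 1.42.0, limma-voom (limma 3.58.1), other normalizations and filters, a hepatocyte score as covariate, families summed, No316 and No368 summed, and each tumor left out. Leaving tumors out of the pathway list medians was chosen after seeing the data. The fits were also run on simulated data, and the outcome is not reported here. The 51-base words of all M21 transcripts were compared on either strand, leaving out overlapping genes, with protein-coding transcripts alone used for protein-coding genes. Parents and copies were aligned with Biopython 1.88. Some members that the rule names are not reported here.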

Additional observations from a re-analysis of the deposited data

How the results depend on the processing

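edgeR called no ribosomal protein gene and no pseudogene under any normalization, filter, covariate or summing of families, nor when any tumor was left out. The limma-voom fit called none either. Each of these fits called 0 of all genes tested, so the absence of calls does not set the members apart. *Cd44* itself had an edgeR adjusted p of 0.452 and a DESeq2 adjusted p of 0.0145. The DESeq2 Wald test called 1 gene and 2 pseudogenes, and with No316 and No368 summed, chosen after seeing the data, 0 genes and 1 pseudogene (*Rpl5-ps1*). Over all genes it called 419, and 146 with No316 and No368 summed. With a tumor left out, the median log2 fold change ranged from 0.07 to 0.80 for the genes and from -0.03 to 0.76 for the pseudogenes. With the hepatocyte score as a covariate the medians were 0.54 for the genes and 0.30 for the pseudogenes, beside 0.05 for all genes. The difference in the share of the genes was 0.314 percentage points over the 6 libraries, -0.181 with No316 and No368 averaged, and from -0.790 to 1.30 with a tumor left out. Over the 6 libraries it was 0.330 of protein-coding nuclear counts, 0.731 without the top 100 genes outside the members, and 1.19 of all counts. With No316 and No368 averaged these 3 values were -0.247, 0.0309 and 1.25.

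The counts of members without overlap between genotypes depended on single tumors, in settings chosen after seeing the data. Genes higher in every *Cd44*−/− tumor numbered from 21 to 63 with a tumor left out (63 without No244), and lower ones from 0 to 2 (2 without No203), while over all genes the shares ran from 10.6% to 20.2% higher and from 10.3% to 19.3% lower. For pseudogenes the numbers were 18 to 40 (13.6% to 30.3%) and 5 to 16 (3.79% to 12.1%), and 11 were lower with No316 and No368 averaged.

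Of 599 values of 36 named members under the alternatives, 581 kept their direction. 12 members changed sign at least once. The log2 fold changes with each tumor left out ranged as follows: *Rpl22l1* from -0.23 to 0.77, *Rpl24* from -0.74 to 0.39, *Rpl35* from -0.84 to 0.35, *Rpl36* from -0.68 to 0.43, *Rpl3l* from -6.01 to 0.21, *Rpl41* from -1.08 to 0.35, *Rpl5* from -0.48 to 0.30, *Rps15* from -0.80 to 0.34, *Rps21* from -0.45 to 0.28, *Rps3a2* from -0.83 to 0.40 and *Rps4x* from -0.70 to 0.35. The sign changed without No244, except for *Rpl22l1* (without No203) and *Rps3a2* (in 3 of 6 settings). With library size alone *Rpl36* was 0.013 and *Rps3a2* 0.18, without a low-count filter *Rps3a2* was 0.0146, and with the hepatocyte score as a covariate *Rpl39l* was 0.62 and *Rps3a2* 0.39. The cause was not tested. No paired analysis was possible because the groups share no replicate numbers.

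With at least 50 counts in the pair No316 and No368 the shares outside sampling noise were 43.5% of the genes and 68.3% of the pseudogenes. Counts of members that share reads with a copy, and of overlapping genes, limit all values, and levels under 3 counts (0.0990 to 0.252 CPM) cannot be told from 0.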
